A study of Mus musculus with 16 samples.

Results

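Interferon-stimulated genes are the genes that cells switch on when they meet interferon. The 44 genes described here were chosen by name from the 50559 gene symbols of the count table, as known interferon-stimulated genes, and all 44 had enough counts to be tested (18335 genes did). Type I interferons bind the receptor IFNAR1/IFNAR2, whose kinases JAK1 and TYK2 phosphorylate transcription factors of the cell. STAT2 and IRF9 are parts of the complex ISGF3 that then binds the interferon-stimulated response element (ISRE) in front of antiviral genes, while interferon gamma acts mostly on GTPase, antigen processing and chemokine genes. Double-stranded RNA, including synthetic siRNA, can start interferon production through Toll-like receptors in endosomes and through RIG-I and MDA5 in the cytosol, so these genes were read to ask whether an siRNA or an inhibitor comes with an interferon response in the liver.

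The livers came from male C57BL/6J mice, 6 weeks old at the start, which were fed a low-fat diet (LFD; the labels call it chow) or a high-fat diet (HFD) for 10 weeks and treated over the last 4 weeks. Ketohexokinase (KHK), which phosphorylates fructose, was lowered by an siRNA or blocked by a small-molecule kinase inhibitor, PF-06835919. Every mouse received an siRNA injection every 2 weeks and gavage 2 times a day, so no group was free of siRNA: in LFD and in HFD this was a luciferase siRNA (10 mg/kg) with methylcellulose as the gavage, in HFD + siRNA it was the KHK siRNA (20 mg/kg) with methylcellulose, and in HFD + Inhib it was the luciferase siRNA (10 mg/kg) with the inhibitor by gavage (15 mg/kg). The KHK siRNA carries a GalNAc group that the asialoglycoprotein receptor of hepatocytes takes up. An effect that luciferase and KHK siRNA share cannot be told apart from the state of untreated liver here, the KHK siRNA was given at the larger dose, and the labels do not say which mice received insulin or saline shortly before the liver was taken. Each group had 4 libraries of whole liver RNA, with totals of 24317111 to 35820234 expected counts. In whole liver, fewer cells of a type and less RNA per cell cannot be told apart.

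The labels held for the targeted gene. Khk was at 214, 233, 349 and 269 CPM in the LFD libraries, at 251, 322, 233 and 251 in HFD, at 11.8, 9.14, 18.1 and 11.5 in HFD + siRNA and at 112, 152, 94.6 and 120.5 in HFD + Inhib. Khk was lower than in HFD in both treated groups, with a log2 fold change of -4.38 ± 0.23, adjusted p = 1.88e-08 for the siRNA and -1.14 ± 0.20, adjusted p = 0.000752 for the inhibitor (edgeR's quasi-likelihood test, ± SE, Benjamini-Hochberg adjusted over 18335 genes, as for every test here). Levels are in CPM, the usual unit of counts scaled to the library total (here after TMM scaling), given in the order of the replicate numbers. The labels do not say that these numbers pair libraries across groups.

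Many genes of the list carry letters of the response element near their start. RefSeq promoter windows of 300 bases (250 before and 50 after the start of transcription, build GRCm38.p6, which is not the build mm39 named for the counts) were found for 34 of the 44 genes. The ISRE core was searched as GAAA, any 2 bases and GAAA again, on both strands, so that it can also read as TTTC, any 2 bases and TTTC. It was present in 19 of these 34 genes (55.9%), against 3.99% of all 27025 genes with such windows. In 16 of the 19 a core ended before the start of transcription, and in the other 3 (Ddx58, Eif2ak2 and Ifih1) it lay after it. The interferon gamma-activated site, searched as TTCNNNGAA, which is the same on both strands and may overlap an ISRE core, was present in 9 of the 34 (26.5%), against 9.55% of all genes. A match is a description of letters, not a bound site. For 8 genes, 60 bases around the core nearest before the start are shown on the strand of the gene, with cores in capitals. The 8 genes are 1 from each role group below except antigen processing, whose 3 windows hold no ISRE core. The capitals mark letters that match the core, and binding of ISGF3 to them was not tested. In these stretches Isg15 has 3 overlapping cores, Oas1a and Irgm1 have 2 overlapping ones, and Ifit1 and Ddx60 have 2 separate ones.
Stat2: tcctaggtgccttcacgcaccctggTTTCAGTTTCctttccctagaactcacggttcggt
Ddx60: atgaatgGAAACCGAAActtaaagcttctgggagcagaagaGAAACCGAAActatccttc
Ifit1: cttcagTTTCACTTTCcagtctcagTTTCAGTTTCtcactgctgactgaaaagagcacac
Oas1a: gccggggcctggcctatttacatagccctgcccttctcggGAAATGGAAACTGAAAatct
Rsad2: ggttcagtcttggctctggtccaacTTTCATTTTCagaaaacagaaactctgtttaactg
Isg15: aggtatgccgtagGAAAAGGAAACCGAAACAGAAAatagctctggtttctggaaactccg
Irgm1: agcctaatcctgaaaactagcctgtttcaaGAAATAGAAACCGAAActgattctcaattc
Cxcl10: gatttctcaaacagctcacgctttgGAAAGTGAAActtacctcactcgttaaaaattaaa

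On GRCm38.p6 these stretches lie at Stat2 chr10:128270251-128270310 (plus strand), Ddx60 chr8:61928027-61928086 (plus strand), Ifit1 chr19:34640779-34640838 (plus strand) and Oas1a chr5:120907526-120907585 (minus strand). The others lie at Rsad2 chr12:26456538-26456597 (minus strand), Isg15 chr4:156200850-156200909 (minus strand), Irgm1 chr11:48871421-48871480 (minus strand) and Cxcl10 chr5:92349068-92349127 (minus strand). All 8 end before the start of transcription.

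Most of the list was lower with the inhibitor, few of its genes differed with the siRNA, and many were higher on the high-fat diet. In HFD + Inhib against HFD, 34 of the 44 genes fell and none rose, with a median log2 fold change of -0.82. In HFD + siRNA against HFD, 2 genes fell (Cxcl10 and Dtx3l), none rose, and the median was -0.02. In HFD against LFD, 19 genes rose and none fell, with a median of 0.46. For comparison, 8.42% of all tested genes fell and 9.80% rose in HFD + Inhib against HFD, 6.55% fell and 5.20% rose in HFD + siRNA against HFD, and 9.58% rose and 8.80% fell in HFD against LFD. The medians of all genes were -0.004, 0.022 and -0.011 in these 3 comparisons. They share the HFD libraries, so they are not independent of one another.

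For the counts of 0 above, at an unadjusted p under 0.05 none of the 44 genes was higher in HFD + Inhib than in HFD, 2 (Isg15 and Ifi27) were higher in HFD + siRNA than in HFD and none was lower in HFD than in LFD, and DESeq2 also called none of the 44 in those directions. The groups did not overlap for 31 of the 44 genes between HFD + Inhib and HFD, for 16 between HFD and LFD and for 3 between HFD + siRNA and HFD, where 23.3%, 20.4% and 20.6% of all tested genes did not overlap in either direction. The count of 19 for the diet became 12 without HFD replicate 4, and was 9 at an adjusted p under 0.01. With the siRNA, the upper end of the 95% interval of the log2 fold change was under 1, which is a doubling, in 43 of the 44 genes, and the highest was 1.15 for Isg15.

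Fold changes followed the GC content of transcripts across 3797 genes with a mean log2 CPM of at least 5, which are not independent replicates, with a Spearman correlation of -0.495 for the diet, 0.49 for the siRNA and -0.218 for the inhibitor. With length and GC trends removed from each library, 17 of the 44 genes were higher for the diet, 2 lower for the siRNA and 36 lower for the inhibitor, with none in the other direction and medians of 0.50, -0.048 and -0.837. The highest value for the siRNA was then 0.295, for Irgm1.

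**Figure D1:**
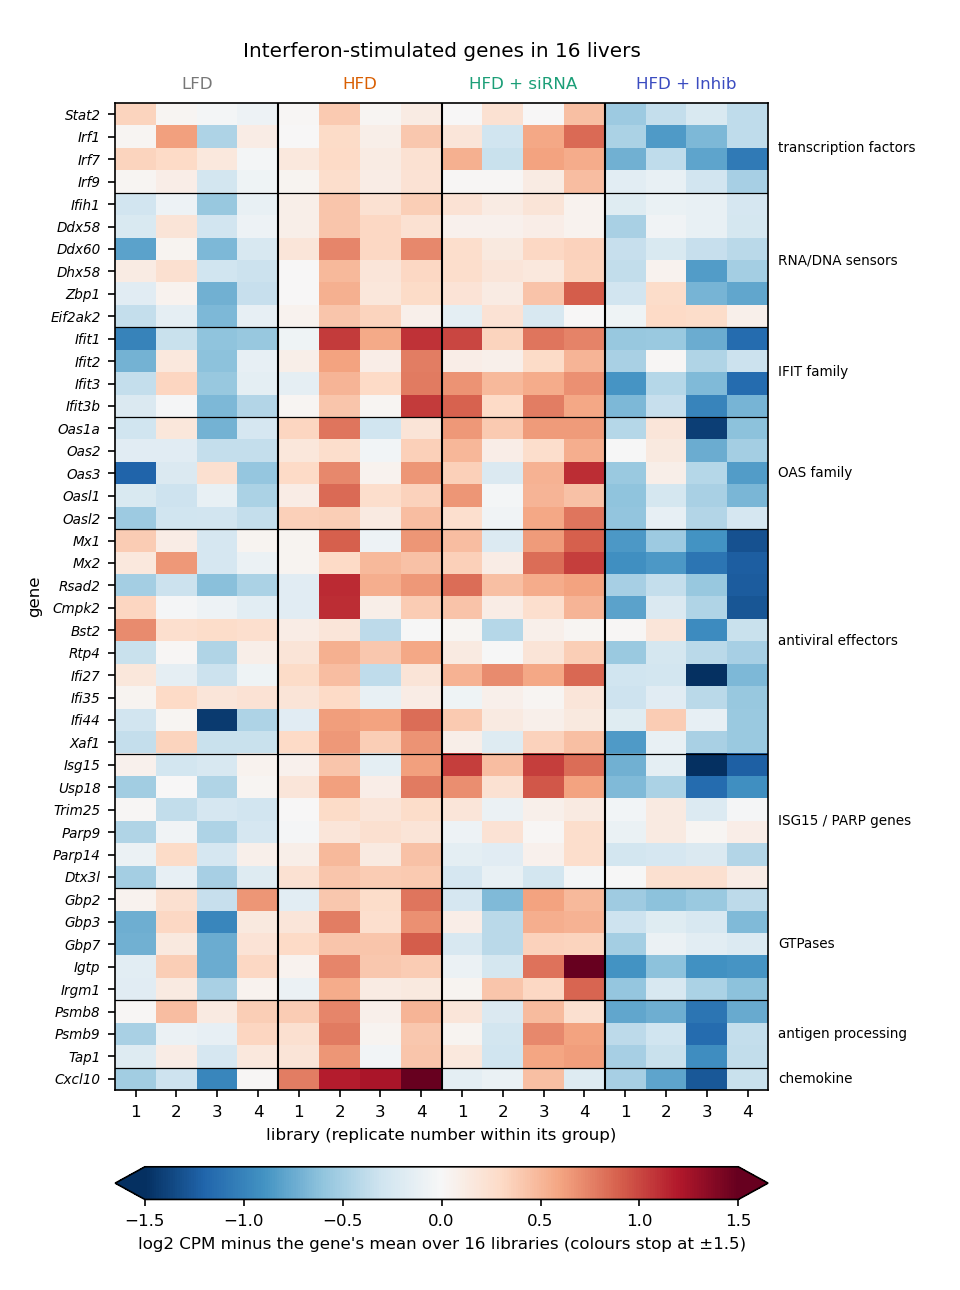
Level of each of the 44 genes (rows, by role) in the 16 libraries (columns, by group and replicate number), as log2 CPM minus the mean of the gene over the 16 libraries, red for above and blue for below. The HFD + Inhib columns are mostly blue and the HFD and HFD + siRNA columns mostly red, with the LFD columns mostly between them, and genes such as Bst2, Dtx3l, Eif2ak2, Parp9 and Trim25 depart from that pattern.

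The list can be read per library as the median, over its genes, of log2 CPM minus the mean of the gene. It was -0.22, 0.048, -0.35 and -0.083 in the LFD libraries and 0.091, 0.50, 0.15 and 0.41 in HFD. It was 0.18, 0.068, 0.43 and 0.50 in HFD + siRNA and -0.49, -0.22, -0.52 and -0.53 in HFD + Inhib. The HFD and HFD + siRNA libraries covered the same range, all HFD + Inhib libraries lay below all of them, and HFD + Inhib and LFD overlapped. Summed over the 44 genes, the level was 816 ± 84.04 CPM in LFD, with 1058 ± 121 in HFD, then 1014 ± 117 with the siRNA and 731 ± 58.2 with the inhibitor (SD, n = 4). Trim25 was the most abundant of them in CPM. Per kilobase of transcript, which is needed to compare genes, Bst2 (49.1 CPM per kb over all libraries), Ifi27 (43.3) and Trim25 (21.5) were the highest and Mx1 (0.312) and Oas3 (0.421) the lowest.

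**Figure D2:**
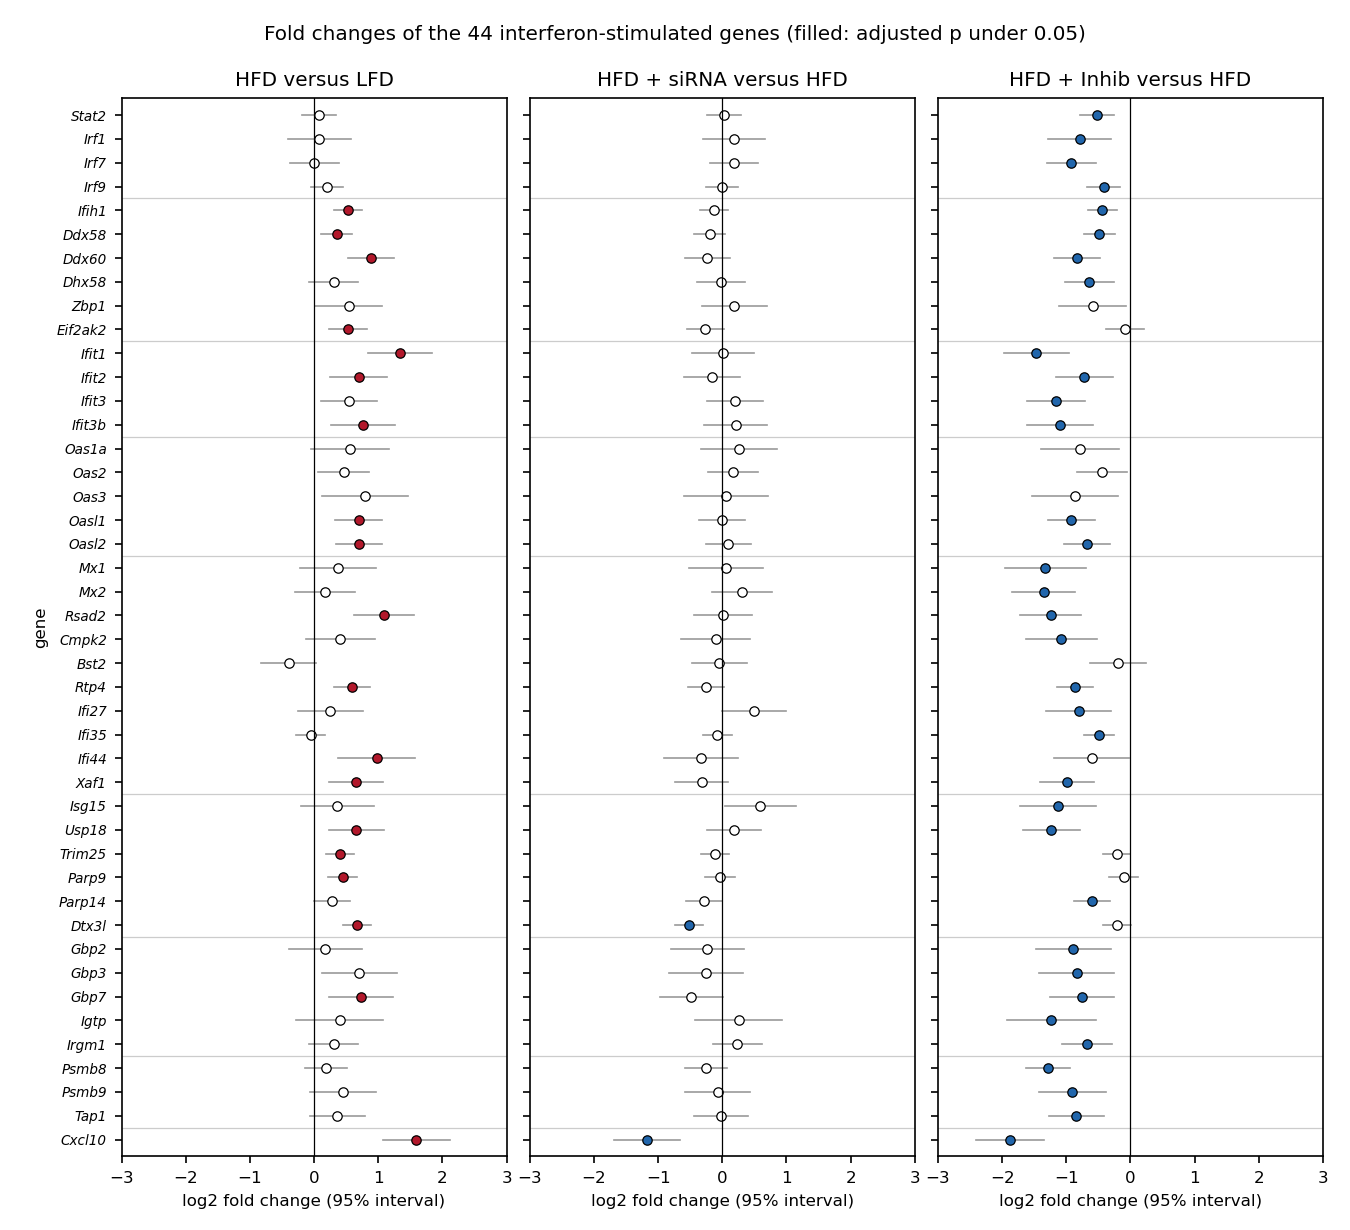
Log2 fold change of each gene (rows, by role) with its 95% interval in 3 comparisons, filled red for higher and blue for lower at an adjusted p under 0.05, open otherwise. In the right panel all 44 genes lie below 0 and 34 are filled, in the left panel 19 are filled above 0, and in the middle panel only Cxcl10 and Dtx3l are filled.

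The transcription factors that carry the interferon signal fell with the inhibitor, 4 of 4, and none was called for the diet or the siRNA. STAT2 and IRF9 are parts of ISGF3, IRF7 amplifies interferon production and IRF1 drives genes of the interferon gamma response. Irf7 was at 21.1, 20.5, 18.6 and 16.2 CPM in the LFD libraries, at 18.6, 20.5, 18.1 and 19.5 in HFD, at 24.1, 13.2, 25.3 and 24.6 in HFD + siRNA and at 10.1, 12.8, 9.58 and 8.01 in HFD + Inhib. The HFD + Inhib libraries were the lowest 4 of the 16, and HFD + siRNA replicate 2 was next to them, apart from the other 3 of its group. Irf7 stood at -0.92 ± 0.18, adjusted p = 0.00162 for the inhibitor (log2 fold change ± SE), 0.19 ± 0.17, adjusted p = 0.526 for the siRNA and 0.005 ± 0.17, adjusted p = 0.988 for the diet.

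Stat2 was at 63.7, 51.3, 49.6 and 47.7 CPM in the LFD libraries, at 51.2, 66.4, 51.7 and 55.04 in HFD, at 50.7, 59.1, 50.8 and 69.03 in HFD + siRNA and at 34.6, 39.3, 43.3 and 38.7 in HFD + Inhib. The HFD + Inhib libraries lay below all HFD and all HFD + siRNA libraries, with a log2 fold change of -0.53 ± 0.12, adjusted p = 0.0066 against HFD. Irf1 was at 26.4, 39.7, 18.8 and 27.9 CPM in the LFD libraries, at 26.01, 31.6, 27.4 and 34.4 in HFD, at 29.3, 21.1, 38.6 and 46.6 in HFD + siRNA and at 18.6, 14.4, 16.2 and 19.9 in HFD + Inhib. Irf1 varied widely within LFD and HFD + siRNA, and its HFD + Inhib libraries lay below all HFD and HFD + siRNA libraries, at -0.79 ± 0.23, adjusted p = 0.0221 against HFD. Irf9 was at 24.5, 25.6, 19.9 and 22.97 CPM in the LFD libraries, at 24.7, 28.9, 25.8 and 27.9 in HFD, at 24.2, 24.2, 26.02 and 32.96 in HFD + siRNA and at 21.4, 22.3, 19.6 and 17.03 in HFD + Inhib. Irf9, with the smallest decrease of the 4 factors, was at -0.42 ± 0.12, adjusted p = 0.0181. The call of Irf1 was lost without HFD replicates 2 or 4 or HFD + Inhib replicates 2 or 3, and that of Irf9 without HFD replicate 2 or HFD + Inhib replicate 4.

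The sensors of foreign nucleic acid rose with the diet in 4 of 6 genes and fell with the inhibitor in 4 of 6, and none was called for the siRNA. Ifih1 encodes MDA5 and Ddx58 encodes RIG-I, the cytosolic receptors of double-stranded RNA, and Dhx58 (LGP2) regulates both. Ifih1 was at 33.04, 38.2, 27.2 and 37.5 CPM in the LFD libraries, at 42.98, 53.9, 47.1 and 51.95 in HFD, at 46.98, 43.95, 46.2 and 41.8 in HFD + siRNA and at 35.6, 37.7, 37.3 and 34.03 in HFD + Inhib. All HFD libraries lay above all LFD and all HFD + Inhib libraries, with log2 fold changes of 0.53 ± 0.10, adjusted p = 0.00283 for the diet and -0.44 ± 0.10, adjusted p = 0.00656 for the inhibitor. Ddx58 was at 26.6, 35.5, 25.5 and 29.5 CPM in the LFD libraries, at 33.2, 41.6, 38.5 and 36.5 in HFD, at 32.5, 32.6, 33.5 and 32.4 in HFD + siRNA and at 22.3, 29.9, 28.9 and 25.9 in HFD + Inhib. The HFD and HFD + Inhib groups did not overlap, and Ddx58 stood at 0.35 ± 0.11, adjusted p = 0.0349 for the diet and -0.49 ± 0.11, adjusted p = 0.00575 for the inhibitor. With the KHK siRNA, an RNA duplex itself, Ifih1 stood at -0.13 ± 0.10, adjusted p = 0.44 and Ddx58 at -0.20 ± 0.11, adjusted p = 0.275, and the 95% intervals, -0.35 to 0.09 and -0.43 to 0.045, end close above 0. The diet's call of Ddx58 was lost without LFD replicates 1 or 3 or HFD replicates 2, 3 or 4, or in a fit of the 2 groups alone.

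Ddx60 was at 5.66, 10.2, 6.18 and 8.37 CPM in the LFD libraries, at 11.2, 16.4, 12.2 and 16.3 in HFD, at 11.9, 10.9, 12.2 and 12.6 in HFD + siRNA and at 7.81, 8.43, 7.77 and 7.50 in HFD + Inhib. Ddx60, a helicase that assists RIG-I, had the largest fold changes of the sensors, 0.88 ± 0.16, adjusted p = 0.00223 for the diet and -0.83 ± 0.16, adjusted p = 0.00203 for the inhibitor. Dhx58 was at 8.34, 9.10, 6.24 and 6.16 CPM in the LFD libraries, at 7.72, 10.8, 8.69 and 9.54 in HFD, at 9.24, 8.74, 8.55 and 9.70 in HFD + siRNA and at 5.94, 8.01, 4.31 and 5.40 in HFD + Inhib. The Dhx58 decrease with the inhibitor was -0.64 ± 0.17, adjusted p = 0.0162, with overlapping groups, and it was not called without HFD replicate 2 or HFD + Inhib replicates 3 or 4. Eif2ak2, which encodes the double-stranded RNA kinase PKR, rose with the diet (0.54 ± 0.14, adjusted p = 0.0132) but was at 28.3 ± 3.29 CPM in HFD + Inhib against 29.9 ± 3.69 in HFD (-0.08 ± 0.14, adjusted p = 0.737). Zbp1, a sensor of Z-form nucleic acid, was called in none of the 3 comparisons with HFD or LFD, at 4.71 ± 0.748 CPM in HFD and 3.17 ± 1.13 in HFD + Inhib (mean ± SD, n = 4).

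In the IFIT family, whose proteins bind viral RNA ends and block its translation, all 4 genes fell with the inhibitor, 3 rose with the diet and none was called for the siRNA. Ifit1 was at 3.27, 5.20, 4.30 and 4.42 CPM in the LFD libraries, at 6.26, 13.6, 9.67 and 13.9 in HFD, at 13.2, 8.27, 11.4 and 10.96 in HFD + siRNA and at 4.42, 4.47, 3.92 and 2.94 in HFD + Inhib. HFD and HFD + siRNA covered one range, and all LFD and HFD + Inhib libraries lay below it. The log2 fold change of Ifit1 was 1.33 ± 0.23, adjusted p = 0.00137 for the diet, 0.013 ± 0.22, adjusted p = 0.979 for the siRNA and -1.47 ± 0.23, adjusted p = 0.000314 for the inhibitor.

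Ifit2 was at 3.73, 6.77, 3.97 and 5.60 CPM in the LFD libraries, at 6.46, 9.27, 6.53 and 10.3 in HFD, at 6.52, 6.41, 7.43 and 8.67 in HFD + siRNA and at 4.35, 6.14, 4.44 and 4.86 in HFD + Inhib. HFD + Inhib lay below every HFD library, at -0.72 ± 0.20, adjusted p = 0.0203, and the diet stood at 0.70 ± 0.20, adjusted p = 0.0258. The inhibitor's call of Ifit2 was lost without HFD replicates 2 or 4 or HFD + Inhib replicates 1 or 3, and the diet's without LFD replicates 1 or 3 or HFD replicates 2 or 4, or in a fit of the 2 groups alone, or with length and GC trends removed. Ifit3 was at 8.01, 12.9, 6.93 and 9.29 CPM in the LFD libraries, at 9.38, 14.7, 12.6 and 17.6 in HFD, at 16.4, 14.3, 15.1 and 16.5 in HFD + siRNA and at 5.55, 7.66, 6.51 and 4.62 in HFD + Inhib. Ifit3b was at 2.43, 2.79, 1.76 and 2.08 CPM in the LFD libraries, at 2.88, 3.75, 2.88 and 5.83 in HFD, at 5.19, 3.46, 4.81 and 4.22 in HFD + siRNA and at 1.77, 2.21, 1.43 and 1.74 in HFD + Inhib. The HFD + Inhib libraries of both genes lay below all HFD and HFD + siRNA libraries, at -1.16 ± 0.20, adjusted p = 0.00087 for Ifit3 and -1.10 ± 0.23, adjusted p = 0.00353 for Ifit3b. Ifit3 shares 51.2% of its 50-base words with Ifit3b, so that reads could be moved between the pair in counting. For the diet, Ifit3b was called (0.76 ± 0.23, adjusted p = 0.0308) and Ifit3 was not (0.55 ± 0.20, adjusted p = 0.0676), but the call of Ifit3b was lost without LFD replicates 1, 3 or 4 or HFD replicates 2 or 4, or in a fit of the 2 groups alone, or with length and GC trends removed.

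Of the OAS family, whose enzymes make the 2-5A messenger that activates RNase L, 2 of 5 (Oasl1 and Oasl2) rose with the diet, 2 of 5 (again Oasl1 and Oasl2) fell with the inhibitor, and none was called for the siRNA. The Oasl1 protein itself makes no 2-5A. Oasl1 was at 6.83, 6.45, 7.38 and 5.74 CPM in the LFD libraries, at 8.62, 14.3, 9.56 and 10.2 in HFD, at 12.7, 7.83, 11.4 and 10.8 in HFD + siRNA and at 5.26, 6.64, 5.70 and 4.98 in HFD + Inhib. Oasl1 stood at 0.70 ± 0.17, adjusted p = 0.0103 for the diet and -0.92 ± 0.17, adjusted p = 0.00119 for the inhibitor, with no overlap in either case. Oasl2 was at 3.31, 3.94, 3.97 and 3.79 CPM in the LFD libraries, at 6.20, 6.27, 5.31 and 6.68 in HFD, at 5.76, 4.66, 7.22 and 8.44 in HFD + siRNA and at 3.21, 4.43, 3.56 and 4.08 in HFD + Inhib. Oasl2 stood at 0.70 ± 0.17, adjusted p = 0.00914 and -0.68 ± 0.17, adjusted p = 0.0088.

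Oas1a was at 2.39, 3.30, 1.79 and 2.47 CPM in the LFD libraries, at 3.68, 5.14, 2.39 and 3.36 in HFD, at 4.62, 3.86, 4.57 and 4.57 in HFD + siRNA and at 2.19, 3.34, 1.10 and 1.92 in HFD + Inhib. Oas2 was at 3.19, 3.19, 2.81 and 2.80 CPM in the LFD libraries, at 4.04, 4.32, 3.49 and 4.61 in HFD, at 5.06, 3.86, 4.33 and 5.25 in HFD + siRNA and at 3.57, 3.96, 2.14 and 2.52 in HFD + Inhib. Oas1a and Oas2 overlapped between HFD and HFD + Inhib and were not called there (-0.79 ± 0.28, adjusted p = 0.0635 and -0.44 ± 0.18, adjusted p = 0.104), but both were lower in HFD + Inhib than in HFD + siRNA (-1.05 ± 0.28, adjusted p = 0.00867 and -0.61 ± 0.18, adjusted p = 0.0153), for Oas2 not without HFD + siRNA replicate 4 or HFD + Inhib replicates 3 or 4. Oas1a shares 57.6% of its words with Oas1g, a near copy. Oas3 was at 2.51 ± 0.527 CPM in HFD and 1.39 ± 0.395 in HFD + Inhib (-0.86 ± 0.31, adjusted p = 0.0632) and rested on 19 to 134 counts a library.

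**Figure D3:**
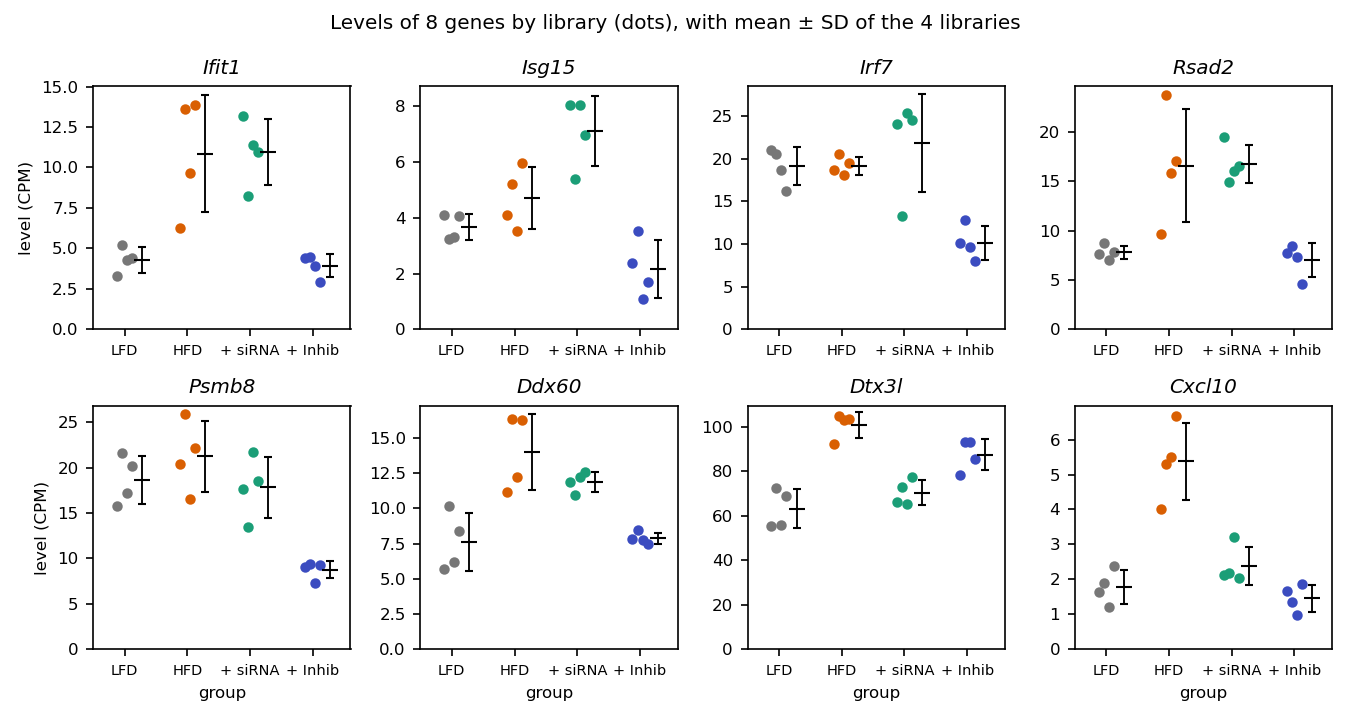
Level in CPM (vertical axes, from 0) of 8 genes in each library (dots), by group, with mean ± SD (n = 4). The HFD + Inhib libraries are lowest for Irf7 and Psmb8 while LFD stands with HFD, LFD and HFD + Inhib are both low for Ifit1, Rsad2 and Ddx60, and HFD + siRNA falls below HFD for Cxcl10 and Dtx3l.

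Among the other antiviral effectors, 8 of 10 fell with the inhibitor, 4 rose with the diet and none was called for the siRNA. Mx2 is a gene of the Mx family of antiviral GTPases, and whether it makes a working protein in this strain was not tested. Rsad2 (viperin) makes a chain-terminating nucleotide, Rtp4 is a chaperone of membrane receptors, and Ifi27 is a small membrane protein. Mx2 was at 4.57, 6.41, 3.44 and 3.86 CPM in the LFD libraries, at 4.21, 5.03, 5.73 and 5.55 in HFD, at 5.22, 4.41, 7.33 and 8.41 in HFD + siRNA and at 2.15, 2.25, 1.91 and 1.74 in HFD + Inhib. Every HFD + Inhib library lay below every other library, and Mx2 stood at -1.35 ± 0.22, adjusted p = 0.000514 for the inhibitor and 0.17 ± 0.21, adjusted p = 0.627 for the diet. Rsad2 was at 7.63, 8.71, 7.05 and 7.84 CPM in the LFD libraries, at 9.71, 23.7, 15.9 and 17.1 in HFD, at 19.5, 14.9, 16.1 and 16.6 in HFD + siRNA and at 7.70, 8.47, 7.35 and 4.59 in HFD + Inhib. Rsad2 rose with the diet, 1.09 ± 0.22, adjusted p = 0.00337, stood at 0.012 ± 0.21, adjusted p = 0.98 for the siRNA, and fell with the inhibitor, -1.25 ± 0.22, adjusted p = 0.000795.

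Rtp4 was at 9.31, 11.9, 8.63 and 12.6 CPM in the LFD libraries, at 13.4, 17, 15.6 and 17.6 in HFD, at 12.9, 11.8, 13.5 and 15.2 in HFD + siRNA and at 8.02, 9.79, 8.87 and 8.30 in HFD + Inhib. All HFD libraries of Rtp4 lay above all LFD and HFD + Inhib libraries, at 0.58 ± 0.13, adjusted p = 0.0064 for the diet and -0.86 ± 0.13, adjusted p = 0.000222 for the inhibitor. Ifi27 was at 43.98, 35.7, 31.3 and 37.5 CPM in the LFD libraries, at 47.8, 54.2, 30.1 and 44.9 in HFD, at 56.1, 64.02, 58.7 and 71.3 in HFD + siRNA and at 31.9, 32.5, 12.5 and 24.6 in HFD + Inhib. Ifi27 was highest in HFD + siRNA, whose libraries lay above all others, without a call against HFD (0.50 ± 0.23, adjusted p = 0.174; unadjusted p = 0.0449; with length and GC trends removed 0.24, adjusted p = 0.502), and fell with the inhibitor (-0.81 ± 0.23, adjusted p = 0.0229), a call lost without HFD replicates 1 or 2 or HFD + Inhib replicate 4, or in a fit of the 2 groups alone. Mx1, Cmpk2, Xaf1 and Ifi35 also fell with the inhibitor, with log2 fold changes of -1.33, -1.08, -0.99 and -0.49 and adjusted p of 0.00412, 0.00682, 0.00202 and 0.0041. The Mx1 allele of this mouse strain makes no working protein, and its values rest on 13 to 70 counts a library. Ifi44 rose with the diet (0.98 ± 0.27, adjusted p = 0.0217) and Xaf1, a pro-apoptotic factor, did as well (0.65 ± 0.19, adjusted p = 0.0273), calls lost without LFD replicate 3 or HFD replicates 3 or 4, or in a fit of the 2 groups alone, or with length and GC trends removed for Ifi44 and without LFD replicates 1, 3 or 4 or HFD replicates 2 or 4 for Xaf1.

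Bst2 (tetherin), which holds budding virus at the cell surface, was at 49.2 ± 8.25 CPM in LFD, 37.4 ± 6.21 in HFD, at 36.2 ± 5.54 in HFD + siRNA and at 32.6 ± 10.2 in HFD + Inhib (mean ± SD, n = 4) and was called in no comparison. The diet stood at -0.40 ± 0.20, adjusted p = 0.178, which became -0.086, adjusted p = 0.744 with length and GC trends removed. The siRNA stood at -0.046 ± 0.20, adjusted p = 0.912 and then at -0.37, adjusted p = 0.143, and the inhibitor at -0.20 ± 0.20, adjusted p = 0.544 against HFD.

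The genes of the ISG15 modifier and of the PARP9/DTX3L ubiquitin ligase split. Isg15, the ubiquitin-like modifier, and Usp18, the protease that removes it and also dampens the interferon receptor, fell with the inhibitor. Isg15 was at 4.11, 3.23, 3.31 and 4.05 CPM in the LFD libraries, at 4.11, 5.21, 3.53 and 5.98 in HFD, at 8.04, 5.39, 8.06 and 6.97 in HFD + siRNA and at 2.37, 3.54, 1.10 and 1.68 in HFD + Inhib. The HFD and HFD + Inhib groups overlapped narrowly, at 3.53 and 3.54 CPM, and the log2 fold change was -1.13 ± 0.27, adjusted p = 0.00784. For the siRNA Isg15 stood at 0.59 ± 0.26, adjusted p = 0.145, the largest positive value of the list, with a 95% interval of 0.037 to 1.15 and overlapping groups (with length and GC trends removed 0.27, adjusted p = 0.5), and HFD + Inhib was lower than HFD + siRNA (-1.72 ± 0.27, adjusted p = 0.000173). Usp18 was at 4.07, 5.84, 4.27 and 5.97 CPM in the LFD libraries, at 6.63, 8.94, 6.26 and 9.97 in HFD, at 9.49, 6.81, 11.1 and 8.88 in HFD + siRNA and at 3.67, 4.20, 2.62 and 3.09 in HFD + Inhib. Usp18 stood at 0.66 ± 0.20, adjusted p = 0.0296 for the diet, 0.19 ± 0.19, adjusted p = 0.572 for the siRNA and -1.23 ± 0.20, adjusted p = 0.00046 for the inhibitor. The diet's call was lost without LFD replicates 1 or 3 or HFD replicates 2 or 4.

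Dtx3l was at 55.5, 72.5, 55.7 and 68.8 CPM in the LFD libraries, at 92.03, 105, 103 and 103 in HFD, at 66.02, 72.9, 65.1 and 77.3 in HFD + siRNA and at 78.3, 92.8, 93.05 and 85.3 in HFD + Inhib. Dtx3l, an E3 ligase that works as a pair with PARP9, was the one gene besides Cxcl10 that fell with the siRNA, -0.52 ± 0.10, adjusted p = 0.00406, and it rose with the diet, 0.67 ± 0.10, adjusted p = 0.000477. For the inhibitor it stood at -0.21 ± 0.10, adjusted p = 0.169. It was higher in HFD + Inhib than in HFD + siRNA (0.31 ± 0.10, adjusted p = 0.0228), which was not called without HFD + siRNA replicates 1 or 3 or HFD + Inhib replicates 2 or 3, or with length and GC trends removed. Parp14 was at 50.5, 65.7, 45.2 and 56.6 CPM in the LFD libraries, at 57.4, 75.7, 59.1 and 72.99 in HFD, at 48.6, 47.9, 56.1 and 64.8 in HFD + siRNA and at 44.3, 45.3, 46.4 and 39.6 in HFD + Inhib. Parp14, a mono-ADP-ribosyltransferase, fell with the inhibitor, -0.60 ± 0.13, adjusted p = 0.004. Parp9 and Trim25, an E3 ligase for RIG-I, rose with the diet (0.45 ± 0.10, adjusted p = 0.00887 and 0.41 ± 0.10, adjusted p = 0.0112) and were not called for the inhibitor (-0.11 ± 0.10, adjusted p = 0.536 and -0.22 ± 0.10, adjusted p = 0.147). Parp9 and Dtx3l lie head to head, and exons of Dtx3l cover 9.4% of the exonic bases of Parp9 on the opposite strand in GENCODE M21; whether the counting used strand is not given in the sources used here.

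The interferon-inducible GTPases, which attack the vacuoles of intracellular pathogens and answer mostly to interferon gamma, fell with the inhibitor in all 5 genes, while 1 rose with the diet and none was called for the siRNA. Irgm1 was at 39.3, 48.4, 31.6 and 45.6 CPM in the LFD libraries, at 41.4, 65.1, 48.2 and 49.02 in HFD, at 45.5, 58.9, 54.8 and 80.6 in HFD + siRNA and at 29.6, 37.5, 31.7 and 28.7 in HFD + Inhib. The HFD + Inhib libraries of Irgm1 lay below all HFD and HFD + siRNA libraries, at -0.68 ± 0.18, adjusted p = 0.0127, a call lost without HFD replicate 2. Igtp was at 22.4, 32.4, 14.9 and 31.01 CPM in the LFD libraries, at 25.8, 41.4, 33.04 and 32.5 in HFD, at 23.5, 20.8, 43.99 and 70.2 in HFD + siRNA and at 13.4, 16.3, 13.3 and 13.5 in HFD + Inhib. Igtp spread over a wide range in HFD + siRNA, where replicate 4 was the highest of the 16 libraries, and its HFD + Inhib libraries lay below all HFD and HFD + siRNA libraries, at -1.24 ± 0.32, adjusted p = 0.0125. Igtp shares 11.8% of its words with Irgm2.

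Gbp7 was at 11.4, 21, 11.3 and 21.8 CPM in the LFD libraries, at 23.4, 25.2, 25.2 and 35.4 in HFD, at 16.01, 14.3, 24 and 23.8 in HFD + siRNA and at 13.3, 17.8, 17.03 and 16.4 in HFD + Inhib. Gbp2 was at 5.70, 6.45, 4.30 and 8.67 CPM in the LFD libraries, at 4.91, 7.27, 6.64 and 9.58 in HFD, at 4.62, 3.46, 8.30 and 7.68 in HFD + siRNA and at 3.78, 3.58, 3.72 and 4.17 in HFD + Inhib. For these guanylate-binding proteins, the HFD + Inhib libraries lay below all HFD libraries, at -0.76 ± 0.23, adjusted p = 0.028 for Gbp7 and -0.89 ± 0.27, adjusted p = 0.0283 for Gbp2, and overlapped with HFD + siRNA. Gbp7 was the one GTPase that rose with the diet, 0.73 ± 0.23, adjusted p = 0.0336. Gbp3 stood at -0.83 ± 0.27, adjusted p = 0.0394 for the inhibitor. The inhibitor's call was lost without HFD replicate 4 or HFD + Inhib replicates 1 or 4 for Gbp7, without HFD replicates 2 or 4 or HFD + Inhib replicates 1, 2 or 3 for Gbp2 and without HFD replicates 2 or 4 or HFD + Inhib replicates 1, 2, 3 or 4 for Gbp3. That of Gbp3 was also lost with the replicate number as a block. The diet's call of Gbp7 was lost without LFD replicates 1 or 3 or HFD replicates 3 or 4, or in a fit of the 2 groups alone, or with length and GC trends removed.

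The antigen processing genes fell with the inhibitor, 3 of 3, and none was called for the diet or the siRNA. Psmb8 and Psmb9 are catalytic subunits of the immunoproteasome and Tap1 carries its peptides into the endoplasmic reticulum. Psmb8 was at 15.8, 21.6, 17.2 and 20.1 CPM in the LFD libraries, at 20.4, 25.9, 16.5 and 22.2 in HFD, at 17.7, 13.4, 21.7 and 18.5 in HFD + siRNA and at 9.08, 9.37, 7.32 and 9.27 in HFD + Inhib. The HFD + Inhib libraries lay below all 12 others, and the decrease, -1.28 ± 0.16, adjusted p = 3.29e-05, had the smallest adjusted p of the 44 genes in this comparison. Tap1 was at 20.96, 25.8, 20.1 and 26.7 CPM in the LFD libraries, at 27.4, 37.7, 23.3 and 31.9 in HFD, at 26.7, 19.4, 35.9 and 36.9 in HFD + siRNA and at 16.9, 18.96, 12.6 and 18.5 in HFD + Inhib. Tap1 stood at -0.85 ± 0.20, adjusted p = 0.00643. Psmb9 was at 6.88, 9.03, 8.84 and 12.03 CPM in the LFD libraries, at 11.3, 16.5, 9.90 and 12.7 in HFD, at 9.90, 7.94, 15.8 and 14.5 in HFD + siRNA and at 7.31, 7.81, 4.31 and 7.50 in HFD + Inhib. Psmb9, which faces away from Tap1 and shares 5.79% of its exonic bases with it on the opposite strand, stood at -0.91 ± 0.24, adjusted p = 0.0138, and its call was lost without HFD replicate 2.

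Cxcl10, the chemokine that draws activated T cells, had the largest fold changes of the list in all 3 comparisons with HFD or LFD. Cxcl10 was at 1.64, 1.90, 1.20 and 2.37 CPM in the LFD libraries, at 4.01, 5.32, 5.50 and 6.68 in HFD, at 2.12, 2.19, 3.21 and 2.05 in HFD + siRNA and at 1.66, 1.36, 0.971 and 1.86 in HFD + Inhib. Every HFD library lay above every other library. The log2 fold change was 1.60 ± 0.24, adjusted p = 0.000532 for the diet, -1.17 ± 0.23, adjusted p = 0.00519 for the siRNA and -1.87 ± 0.24, adjusted p = 5.52e-05 for the inhibitor, and HFD + Inhib lay below HFD + siRNA (-0.70 ± 0.25, adjusted p = 0.0364), which was not called without HFD + siRNA replicate 3 or HFD + Inhib replicates 2 or 3, or with no filter on low counts. These levels rest on 30 to 207 counts a library.

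Set directly against each other, the treatments differed: 33 of the 44 genes were lower and 1 (Dtx3l) higher in HFD + Inhib than in HFD + siRNA, where 16.6% of all genes were lower and 17.3% higher. The median log2 fold change was -0.74 against -0.038 for all genes, and the groups did not overlap for 32 of the 44 (32.4% of all tested genes did not overlap in either direction). By role, all 4 transcription factors, all 4 IFIT genes, all 5 OAS genes, all 3 antigen processing genes and Cxcl10 were lower in HFD + Inhib, with 8 of the 10 other effectors, 4 of the 6 sensors, 2 of the 5 GTPases and 2 of the 6 ISG15 and PARP genes. Besides the losses given above for Oas2, Cxcl10 and Dtx3l, the call of Ifit2 was lost without HFD + siRNA replicates 1, 3 or 4 or HFD + Inhib replicates 1, 3 or 4, or with no filter on low counts, and that of Oas3 without HFD + siRNA replicates 3 or 4 or HFD + Inhib replicates 1, 3 or 4, or with length and GC trends removed. Among the sensors, the call of Ifih1 was lost without HFD + siRNA replicates 1, 2 or 3 or HFD + Inhib replicates 1 or 4, or with no filter on low counts, and that of Zbp1 without HFD + siRNA replicate 4 or HFD + Inhib replicates 3 or 4. The call of Irf9 was lost without HFD + siRNA replicate 4, that of Psmb9 without HFD + siRNA replicate 3, that of Xaf1 without HFD + siRNA replicate 4 and that of Ifi35 with length and GC trends removed. Mx2 stood furthest in adjusted p, at -1.66 ± 0.22, adjusted p = 4.55e-05, and Isg15 furthest in fold change, at -1.72.

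Interferons, the ligands of this pathway, were scarcely detected. Of 21 interferon genes looked up, Ifnk alone passed the filter, with 25 to 82 counts a library and no call (siRNA against HFD -0.41 ± 0.29, adjusted p = 0.39). Ifng had 0 to 5 counts and Ifnz 0 to 2, and the other 18 had no count in any library, where 3 counts correspond to 0.0771 to 0.126 CPM. Interferon transcripts are short-lived and few, and a level under this limit was not detectable at this depth.

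Receptors and kinases changed in both directions. With the inhibitor Ifnar2 rose (0.51 ± 0.10, adjusted p = 0.00273), while Ifngr1 (-0.38 ± 0.092, adjusted p = 0.00889), Tyk2 (-0.45 ± 0.13, adjusted p = 0.0203) and Stat3 (-0.46 ± 0.094, adjusted p = 0.0027) fell. With the siRNA, Ifnar1 fell slightly (-0.25 ± 0.079, adjusted p = 0.0481). With the diet, Ifnar2 fell (-0.45 ± 0.10, adjusted p = 0.00793) and Ifngr2 rose (0.29 ± 0.089, adjusted p = 0.0302).

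Of 20 further sensors and adaptors of the pathways that lead to interferon, 2 rose and 2 fell with the diet, 2 rose with the siRNA, and 1 rose and 4 fell with the inhibitor. For the diet these shares, 10% in each direction, lie near those of all genes (9.58% higher and 8.80% lower), and all genes stood at 5.20% higher for the siRNA and at 9.80% higher and 8.42% lower for the inhibitor. Tlr3 and Tlr7, the endosomal receptors of double-stranded and single-stranded RNA, rose with the diet (0.69 ± 0.14, adjusted p = 0.00416 and 0.72 ± 0.19, adjusted p = 0.0141). They stood at -0.34 ± 0.14, adjusted p = 0.135 and -0.34 ± 0.18, adjusted p = 0.247 with the siRNA. Irf5, a factor downstream of these receptors, was at 10.6 to 27.2 CPM in LFD, 8.50 to 11.1 in HFD, at 14.97 to 20.1 in HFD + siRNA and at 3.92 to 5.41 in HFD + Inhib. It fell with the diet (-0.87 ± 0.21, adjusted p = 0.0101), rose with the siRNA (0.76 ± 0.21, adjusted p = 0.027) and fell with the inhibitor (-1.16 ± 0.22, adjusted p = 0.00144). Irf3 rose with the siRNA as well (0.33 ± 0.10, adjusted p = 0.0324). With the inhibitor, the kinase Ikbke (-0.74, adjusted p = 0.0031), the chaperone of endosomal Toll-like receptors Unc93b1 (-0.48, 0.00781) and the Tlr3 adaptor Ticam1 (-0.42, 0.0267) fell and the adaptor Myd88 rose (0.48, 0.00604).

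Of 12 inhibitors of the pathway, 2 fell and 1 rose with the inhibitor of KHK and 1 rose and 1 fell with the siRNA, against 8.42% and 9.80% of all genes for the inhibitor and 5.20% and 6.55% for the siRNA, so that counts of this size are near those of all genes. The RNA-editing enzyme Adar fell (-0.52 ± 0.11, adjusted p = 0.00343) and the phosphatase Ptpn6 rose (0.40 ± 0.091, adjusted p = 0.00578); Trex1 stood at -0.77 ± 0.19, adjusted p = 0.00983, but 95.8% of its words belong to Atrip as well, so its counts cannot be assigned with certainty. With the siRNA, Nlrx1 rose (0.70 ± 0.15, adjusted p = 0.00878) and Ptpn11 fell (-0.34 ± 0.081, adjusted p = 0.0127), and none of the 12 was called for the diet, where 2 were lower at an unadjusted p under 0.05.

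Interferon-stimulated genes outside the 44 were counted in the same way. Of 57 other tested genes of the ISRE-driven kind, 19 rose and 1 fell with the diet, 3 rose and 1 fell with the siRNA, and 1 rose and 26 fell with the inhibitor, with medians of 0.38, -0.039 and -0.48. For the diet 33.3% rose and 1.75% fell, against 9.58% and 8.80% of all genes. For the inhibitor 1.75% rose and 45.6% fell, against 9.80% and 8.42%. For the siRNA the 5.26% that rose is near the 5.20% of all genes, and 1.75% fell, against 6.55%. Samd9l, which restricts translation, was at 8.30 to 17.9 CPM in LFD, 37.2 to 48.98 in HFD, at 19.1 to 24.9 in HFD + siRNA and at 19.6 to 25.04 in HFD + Inhib. It was the one gene of this list that fell with the siRNA (-1.02 ± 0.19, adjusted p = 0.00388), after the largest rise with the diet (1.74 ± 0.20, adjusted p = 6.19e-05). Ifitm3, which stops viral fusion, was at 165 to 182 CPM in HFD and 71.2 to 97.4 in HFD + Inhib (-1.10 ± 0.10, adjusted p = 1.54e-06). Ly6e fell from 153 to 252 to 57.8 to 73.1 CPM (-1.52 ± 0.15, adjusted p = 4.44e-06). Apol9a (-1.93) and Apol9b (-1.36), which share words with each other, and Phf11b (-1.15) had adjusted p of 9.52e-05, 0.000247 and 0.0242. The 3 that rose with the siRNA were Ifitm2, Lgals3bp and Trim14 (0.56, 0.49 and 0.38).

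Of 21 other tested genes that interferon gamma induces, 3 rose and 1 fell with the diet, 2 rose with the siRNA and 5 fell with the inhibitor, with medians of 0, 0.18 and -0.62. For the diet 14.3% rose and 4.76% fell, against 9.58% and 8.80% of all genes. For the siRNA 9.52% rose, against 5.20%, so that in a list of 21 the counts for both are near those of all genes. For the inhibitor 23.8% fell, against 8.42%. The 5 genes that fell with the inhibitor were Tgtp1, Gbp10, Gbp6, Ifi47 and Irgm2, GTPases of the same families as above, from -2.43 to -0.87. Of these, Tgtp1, Gbp10 and Gbp6 share 70.7% to 84.1% of their words with copies. Of 19 other MHC class I presentation genes, 1 fell with the diet, 5 fell and 1 rose with the siRNA, and 11 fell and 1 rose with the inhibitor. For the inhibitor 57.9% fell and 5.26% rose, against 8.42% and 9.80% of all genes. For the siRNA 26.3% fell and 5.26% rose, against 6.55% and 5.20%. For the diet 5.26% fell, against 8.80%. H2-Q7, a nonclassical class I chain, was at 16.5 to 21.6 CPM in HFD, at 7.18 to 13.4 in HFD + siRNA and at 4.74 to 7.62 in HFD + Inhib (-0.92 ± 0.18, adjusted p = 0.0042 and -1.65 ± 0.18, adjusted p = 1.10e-05). The classical chains H2-K1 (-0.46 ± 0.12, adjusted p = 0.0147) and H2-D1 (-0.68 ± 0.12, adjusted p = 0.000911) fell with the inhibitor and B2m, their light chain, was not called (-0.26 ± 0.12, adjusted p = 0.155). H2-Q genes share words with each other.

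**Figure D4:**
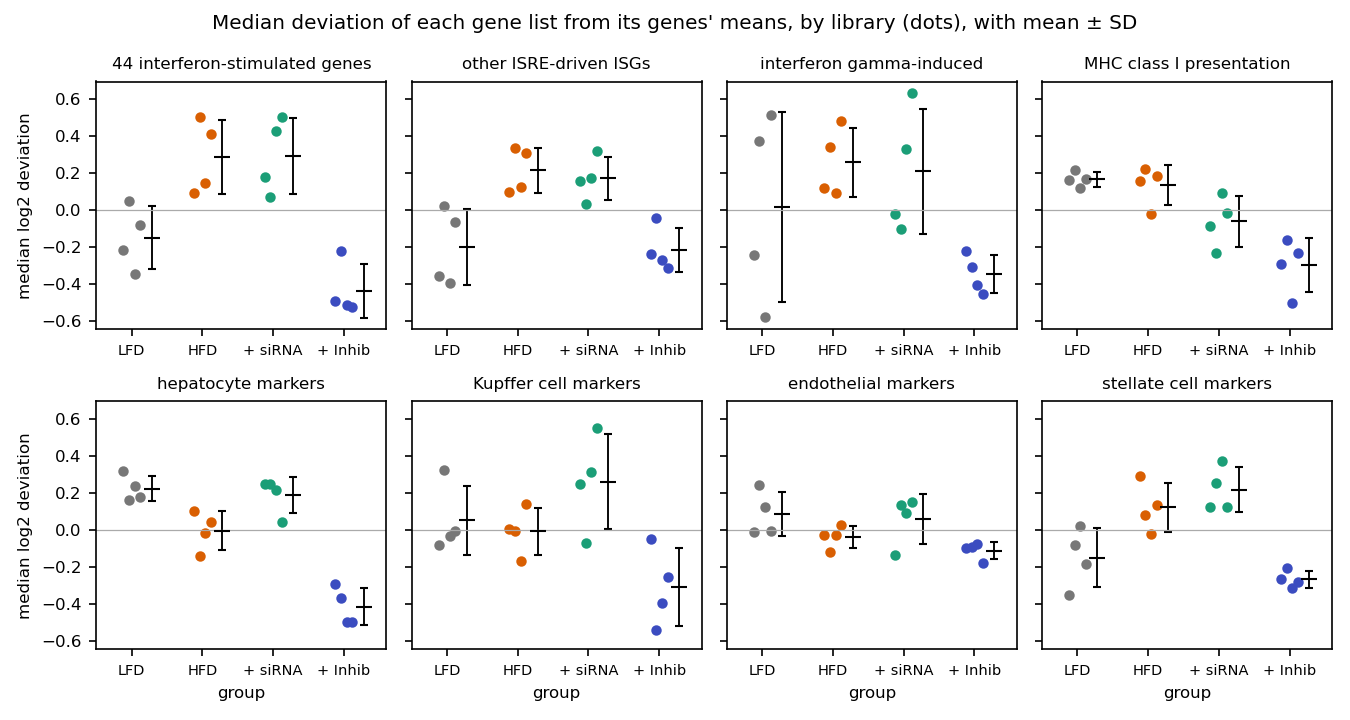
Median over each gene list of log2 CPM minus the mean of the gene, for each library (dots) by group with mean ± SD (n = 4), for the 44 genes, 3 further interferon lists and 4 lists of cell type markers. HFD + Inhib lies lowest for the 44 genes, and its hepatocyte, Kupffer cell and stellate cell markers lie low as well, while its endothelial markers differ little from HFD.

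Markers of other cell types moved with the inhibitor group, and their part in the result was not tested. The summed level of 12 Kupffer cell and macrophage markers was 330.0, 339, 298 and 369 CPM in the HFD libraries, 396, 332, 416 and 475 in HFD + siRNA and 315, 214, 242 and 265 in HFD + Inhib. Of these, 3 fell in HFD + Inhib against HFD (Clec4f, -0.51; Cd5l, -0.55; Folr2, -0.50), with a median of -0.30 over the 12, and 9 were lower than in HFD + siRNA. The 3 and the 9 are 25% and 75% of the list, where 8.42% and 16.6% of all tested genes were lower in these comparisons. None of the 12 was at 0 in any library, and Clec4f was the most abundant.

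The hepatocyte markers moved as well: 4 of 10 fell with the inhibitor, and their sum was 79980, 63320, 76980 and 79210 CPM in HFD and 48970, 47990, 48780 and 50030 in HFD + Inhib, most of it albumin (Alb, -0.77). Asgr1 and Asgr2, which make the receptor that takes up the siRNA, were not called for the inhibitor (-0.38 ± 0.14, adjusted p = 0.0684 and -0.11 ± 0.081, adjusted p = 0.403). Of 8 stellate cell markers 4 fell with the inhibitor, with a sum of 439.6 ± 36.97 CPM in HFD and 325 ± 14.9 in HFD + Inhib. Of 9 endothelial markers 1 rose and none fell, at 373 ± 25.2 and 358 ± 9.99 CPM. Thus 40% of the hepatocyte and 50% of the stellate cell markers fell, against 8.42% of all tested genes. The 11.1% of endothelial markers that rose is near the 9.80% of all genes.

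Blood cell markers were scarce. The 6 markers of plasmacytoid dendritic cells, the main makers of type I interferon, summed to 3.88, 8.14, 5.12 and 3.67 CPM in HFD and 7.17, 14.5, 7.61 and 13.2 in HFD + Inhib, and Ly6d was the most abundant. Of these 6 only 3 were tested, and in HFD + Inhib against HFD 2 were positive and 1 negative, with a median of 0.015 and a highest value of 1.73. The negative one, the surface lectin Siglech, was the only one called. It was at 0.597 to 0.899 CPM in HFD and 0.194 to 0.272 in HFD + Inhib (-1.54 ± 0.31, adjusted p = 0.00211). In HFD + Inhib 3 counts correspond to 0.08995 to 0.1166 CPM, so this level rests on few counts. Of 8 tested T and NK cell markers, 2 fell and 1 rose with the inhibitor, and of 7 B cell markers 2 fell, where 8.42% of all tested genes fell and 9.80% rose. The lowest values were -1.98 for Cd4 and -2.31 for Ms4a1, and the T and NK cell marker that rose was at 1.90. The T and NK cell list held 1 positive and 7 negative values, and the B cell list 1 positive and 6 negative. None of 5 tested monocyte markers and none of 3 neutrophil markers was called for the inhibitor or the siRNA. With the siRNA, no Kupffer cell, endothelial or stellate cell marker was called. Of all tested genes 5.20% rose and 6.55% fell with the siRNA, so that 1 call in a list of 7 or 8 markers is near those of all genes. All 12 Kupffer cell markers had positive values, with a median of 0.295, and 3 were higher at an unadjusted p under 0.05. Of 9 endothelial markers 8 were positive, with a median of 0.146. Of 10 hepatocyte markers 2 (Asgr2 and Serpina1c) rose (0.26 and 0.57). Of 8 tested T and NK cell markers Cd4 alone was called and rose (1.62), with 4 positive and 4 negative values in the list. Of 7 B cell markers Ighm alone was called and fell (-1.73), with 2 positive and 5 negative values. With the diet, 2 of 5 tested monocyte markers, Ccr2 and Cx3cr1, rose (0.93 and 1.19), with 3 positive and 2 negative values in the list. Of 8 stellate cell markers 2 rose. Of 7 B cell markers Ighm alone was called and rose (1.46), while 4 of the 7 were negative, with a median of -0.129. Of 5 cholangiocyte markers Spp1 alone was called and rose (0.62), while 4 of the 5 were negative, with a median of -0.398. Of 10 hepatocyte markers 3 fell (Apoa1, Asgr2 and Serpina1c). No Kupffer cell, endothelial, neutrophil, plasmacytoid dendritic cell or T and NK cell marker was called. Of all tested genes 9.58% rose and 8.80% fell with the diet, so that 1 call in a list of 5 or 7 markers is near those of all genes. Beside the rise of the 44 genes with the diet, the part of these cells was not tested.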

How the data were processed

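Mouse liver RNA was measured in 16 libraries, 4 groups of 4 libraries, grouped by the labels. The authors deposited 1 table of RSEM expected counts for 50559 gene symbols, without scaling, of which 15.1% are not whole. The submitters' processing notes name STAR, RSEM and the build mm39, with no versions. The paper's methods name HTG EdgeSeq, a probe assay, which leaves the assay behind the table unsettled. Nothing says whether strand was used.

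Expected counts were rounded, genes passed edgeR's filterByExpr (minimum count 10, total 15; 18335 of the 33142 genes with any count), scaled by TMM and fitted together for 16 libraries with the quasi-likelihood test of edgeR 4.0.16 in R 4.3.3 (dispersion 0.0380). Adjusted p-values are Benjamini-Hochberg over all genes tested, with a threshold of 0.05. The labels number the libraries of a group without saying that each is 1 mouse, so p-values measure the spread between these libraries. Replicates differed beyond sampling noise. Limits from 3 counts cover counting error only.

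The members and the lists were chosen with earlier results of these data known. Named genes were the members, with a value per library for the called ones (at most 4 per role, by smallest adjusted p) and for Isg15, Irf7, Stat2, Ifit1 and Cxcl10; from other lists, at most 5 called genes by largest fold change, and any interferon with a count. Other genes in the text were picked after their values were seen, and 1 gene of the pathway is not reported here. Sequence shared between genes was counted in 50-base words of GENCODE M21 transcripts. Alternatives were DESeq2 1.42.0, its size factors (RLE), other filters, a fit of 2 groups, a replicate block, offsets for GC content and length (trends with 5 degrees of freedom), an adjusted p under 0.01 and leaving out each library. On simulated counts for HFD + siRNA against HFD (18049 genes), edgeR recovered 85 of 100 genes changed 2-fold and 100 of 100 changed 4-fold, with 12 false calls. The simulation gave every gene the same dispersion, held no GC trend and changed only genes above a minimum mean count. It therefore does not give the recovery for members with few counts, or the false calls under the GC trend of the real libraries.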

Additional observations from a re-analysis of the deposited data

Results flagged for a closer look

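In each group of 4 libraries, 1 library was looked for that stood apart from the other 3 by Dixon's criterion (95%), over 180 sets of 4 values, from 44 genes and the list's median in 4 groups; chance alone gives about 1 in 20, and 11 stood apart. HFD + siRNA replicate 2 was low for Irf7 at 13.2 CPM (others 24.1 to 25.3), for Oas1a at 3.86 and for Bst2 at 27.97. HFD + siRNA replicate 3 was high for Cxcl10 at 3.21 CPM. HFD + Inhib replicate 3 was low for Psmb8 at 7.32 CPM and for Psmb9 at 4.31, and replicate 2 was high for Igtp at 16.3. LFD replicate 1 was high for Bst2 at 61.6 CPM, LFD replicate 2 high for Xaf1 at 6.16, and HFD replicate 1 low for Dtx3l at 92.03. The median deviation of the 44 genes stood apart in HFD + Inhib replicate 2, at -0.22 against -0.53 to -0.49 in the others.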

How the results depend on the processing

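The counts of members called in the 4 comparisons stayed within 1.5 times under DESeq2, RLE size factors, both other filters, the fit of 2 groups, offsets for GC content and length, and the replicate block. At an adjusted p under 0.01, the members called became 9 for the diet (all higher) and 22 for HFD + Inhib against HFD + siRNA, where 0 were higher. That 1 higher gene, Dtx3l, also became 0 with GC and length offsets, with and without the replicate block. Leaving out 1 library gave 12 to 22 members called for the diet, 2 to 2 for the siRNA, 25 to 35 for the inhibitor and 28 to 35 for inhibitor against siRNA, with 12 to 22 higher for the diet and 0 to 1 higher for inhibitor against siRNA. Of 89 calls of single members, DESeq2 and RLE size factors kept 89, the fit of 2 groups 83, GC and length offsets 82, no filter 86, the stricter threshold 56 and the replicate block 88 (Gbp3, HFD + Inhib versus HFD, was at an adjusted p of 0.0542), and the fits without 1 library kept 618 and lost 94. With the replicate block, 19 members were called for the diet, 2 for the siRNA, 34 for the inhibitor and 35 for inhibitor against siRNA. Same-numbered libraries deviated together in 6 of 24 pairs (correlation over 0.1, range -0.13 to 0.34), and 4 of 16 libraries correlated best with their own number. No pairing by number was evident, but such correlations cannot show that same-numbered mice were unpaired. Depth limits Mx1, Oas3 and the interferon genes most.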
